A study of Homo sapiens and Mus musculus with 13 samples.

Results

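RNA:DNA hybrids in NT2 cells, a pluripotent human line from a testicular embryonal carcinoma, were mapped from their RNA strand and from their DNA, and the positions of the resulting peaks were set against each other. Of 88310 peaks in the RNA-strand map, 40259 touched a peak of the DNA map by at least 1 bp, and these peaks are the ones described here, together with the 41225 of 67126 DNA-map peaks that they touched. They come from 454693 peaks in the 9 lists of the series. All peaks of both lists entered, on hg19, and no gene or read count was used to choose them. The peaks just inside and just outside the 1 bp limit were few: 410 peaks overlapped by 50 bp or less, with a median length of 1205 bp, and 388 untouching peaks lay within 50 bp of a DNA-map peak, with a median length of 1189 bp.

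An R-loop forms when RNA pairs with the template DNA strand behind or near a transcribing polymerase and displaces the other DNA strand. Such hybrids are known for their occurrence at CpG island promoters, along transcribed gene bodies and near gene ends. In DRIP-seq, restriction enzymes cut the genomic DNA, the fragments that carry a hybrid are recovered with the S9.6 antibody, and double-stranded DNA is sequenced, so a peak has no strand and a whole restriction fragment can be recovered with the hybrid it holds. In DRIPc-seq, the recovered hybrids are stripped of DNA and the RNA strand itself is read, which gives a strand and does not carry along the flanking DNA of the fragment.

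Both maps were made from NT2 DNA cut with HindIII, EcoRI, BsrGI, XbaI and SspI, here called digest A, with no other treatment named for them. Other lists are used only as further readouts at the same positions: NT2 DNA cut with BamHI, NcoI, ApaL1, NheI and PvuII (digest B), NT2 digest A DNA labelled with RNase A or with RNase H, an enzyme that removes the RNA of a hybrid, and digest A DNA of the leukaemia line K562. The DRIPc list stands for 2 samples and each DRIP list for 1 sample, so no difference below has a replicate check, no p-value is given, and intervals are exact Clopper-Pearson 95% intervals that cover counting error only. The RNase H list held 8998 peaks, against 67126 in digest A without it, and 2.60% of DRIPc peaks touched one. Neighbouring peaks can share a transcript, so peaks are not independent replicates. Only positions are listed, with no reads behind them, so sequencing depth is unknown. The strand sign of the DRIPc list was taken as the strand of the RNA, as no label says otherwise; upstream means the 5′ side of that strand, and every direction below would turn with the sign. No sequence and no gene is named because no hg19 genome or annotation was used.

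Most touching DRIPc peaks began inside the DNA map and most also ended inside it, while more ran out of it downstream than upstream. Where a DRIPc peak touched several DRIP peaks, its position was taken against the span from the outermost edge on one side to the outermost edge on the other. Of the 40259 DRIPc peaks, 45.6% of the list, 66.8% (66.3 to 67.2%) started at or after the upstream edge of the span. Fewer, 60.3% (59.8 to 60.8%), ended at or before its downstream edge. Beyond the downstream edge ended 39.7% (39.2 to 40.2%), and 33.2% (32.8 to 33.7%) started before the upstream edge. Wholly inside lay 17717 peaks, or 44.0% (43.5 to 44.5%). Extension was downstream only in 22.8% (22.4 to 23.2%), upstream only in 16.3% (16.0 to 16.7%) and on both sides in 16.9% (16.5 to 17.3%). The intervals of the downstream-only and upstream-only classes do not overlap.

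The median DRIPc start lay 478 bp inside the upstream edge, and the median end lay 294 bp short of the downstream edge. The middle of the distribution was wide on both sides: starts ran from 280 bp before the edge to 1813 bp after it between the lower and the upper quartile, and from 589 bp past the downstream edge to far inside it for ends, where the lower quartile lay at an offset of -1646 bp. Edges rarely coincided. A start lay within 50 bp of the upstream edge in 3.51% of peaks and an end within 50 bp of the downstream edge in 3.89%, while both held at once in 58 peaks. Within 500 bp the shares were 29.9% for starts, 29.1% for ends and 9.63% for both. Both boundaries of a touching pair were thus seldom close to each other in the 2 maps.

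**Figure D1:**
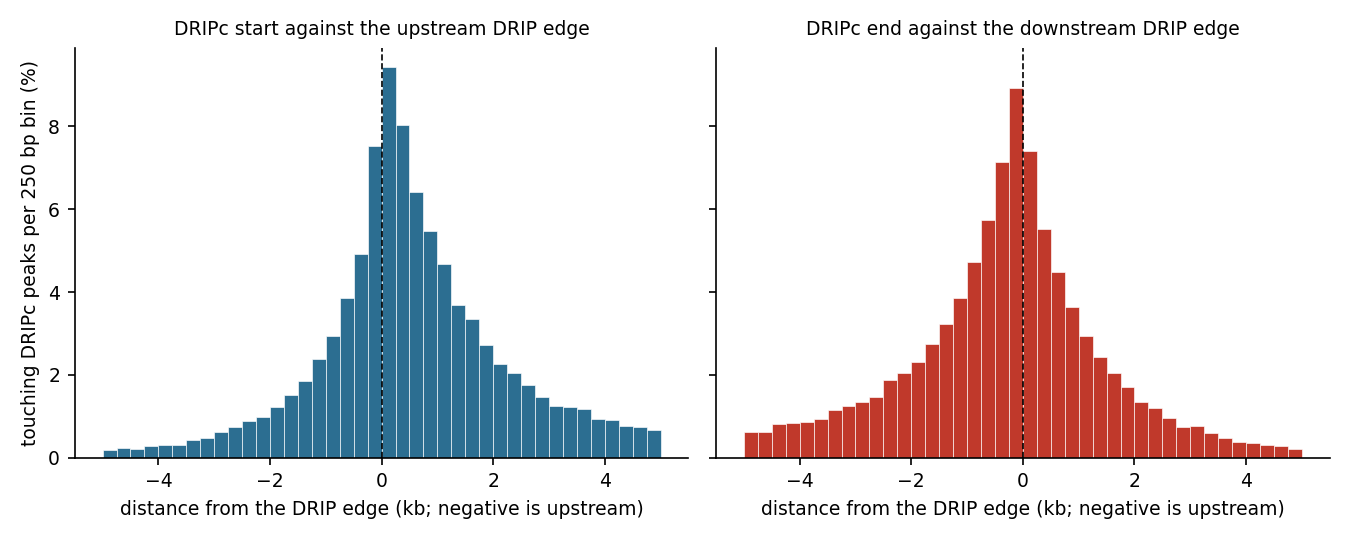
Distance of each touching DRIPc peak's start from the upstream edge of the DRIP span (left) and of its end from the downstream edge (right), in kb, as the percentage of 40259 peaks per 250 bp bin; distances beyond 5 kb are not drawn. Both distributions peak next to the edge and on its inner side, with medians 478 bp inside the upstream edge and 294 bp short of the downstream edge.

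Among the 22542 DRIPc peaks that left the span on at least 1 side, the longer of the extensions was downstream in 56.5% (55.8 to 57.1%). An extension past the downstream edge, where there was one, had a median of 910 bp, and an extension before the upstream edge had a median of 774 bp. In total, 23.8 Mb of DRIPc peak length lay downstream of the DRIP span and 18.1 Mb upstream of it. The direction held on each strand taken alone, at 55.9% (55.0 to 56.8%) for plus strand peaks and 57.1% (56.2 to 58.0%) for minus strand peaks. Downstream points to opposite ends of the chromosome on these strands, and both shares were above 50%.

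The direction also held on most chromosomes. The share with the longer extension downstream was above 50% on 23 of 24 chromosomes, and its interval lay wholly above 50% on 20. The highest share was on chromosome 5, at 60.2% (57.2 to 63.2%), and among the chromosomes above 50% the lowest were chromosome 16, at 52.7% (48.3 to 57.1%), and chromosome 13, at 53.2% (47.9 to 58.4%), whose intervals include 50%. Chromosome Y went the other way: 11 of its 70 extending peaks, or 15.7% (8.11 to 26.4%), were longer downstream. Both strands showed it there, with 32 plus and 27 minus strand peaks longer upstream against 6 and 5 longer downstream. On chromosome Y, 63.1% of the 130 touching DRIPc peaks also touched a DRIPc peak of the other strand, against 19.3% elsewhere. The median upstream extension on this chromosome was 126 bp, and the part of the other-strand peaks in its direction was not tested.

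**Figure D2:**
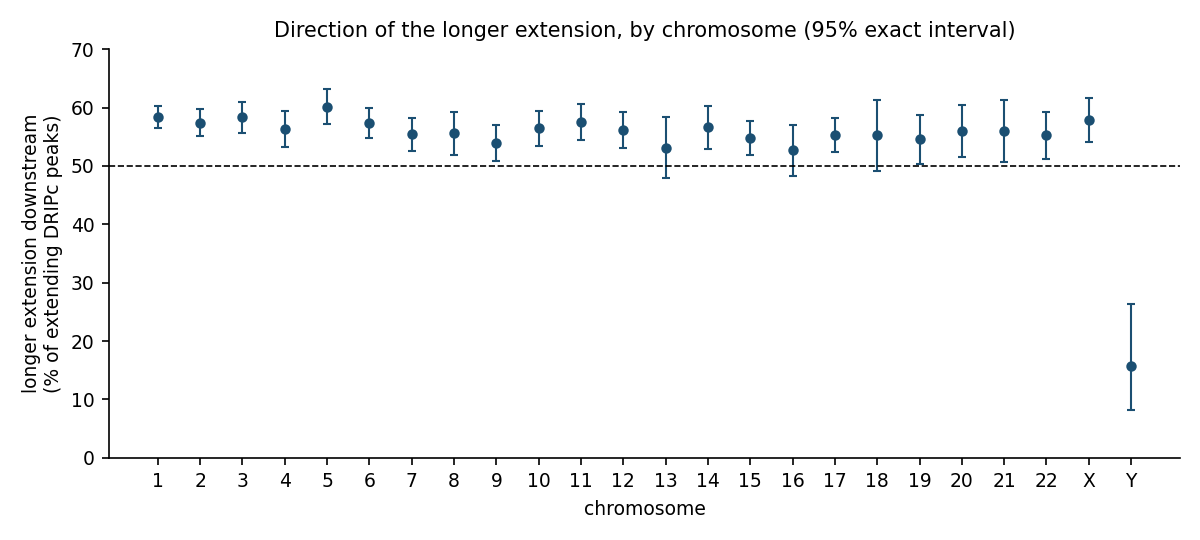
Percentage of extending DRIPc peaks whose longer extension lies downstream, for each of 24 chromosomes, with exact 95% intervals as bars and 50% as a dashed line. Every chromosome but Y lies above 50%, between 52.7% and 60.2%, and Y lies at 15.7%.

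Peaks that shared their place with a DRIPc peak of the other strand differed in direction by length. The DRIPc list held 8569 peaks that touched a peak of the other strand, and 91.3% (90.6 to 91.8%) of them touched a digest A peak, against 40.7% (40.3 to 41.0%) of the others. Among those that extended, the longer extension was downstream in 49.96% (48.0 to 51.9%), and among the others in 57.3% (56.6 to 58.0%). The shortest of them leaned upstream: up to the first length quartile, 22.7% (18.0 to 27.9%) of 291 extending peaks with a partner on the other strand were longer downstream, against 55.3% (52.7 to 57.8%) of 1533 without one. In the second quartile the shares were 51.1% (45.8 to 56.4%) with and 56.8% (55.2 to 58.3%) without a partner, and in the longest 52.3% (49.5 to 55.0%) and 56.8% (55.8 to 57.9%). In the third quartile the direction was downstream in both, at 57.7% (53.6 to 61.7%) and 58.8% (57.6 to 60.0%). In the 5325 overlapping pairs of a plus and a minus strand peak, the left edge of the minus peak lay a median of 116 bp to the right of that of the plus peak, and its right edge a median of 94 bp to the right. The minus peak was the one further right in 53.6% of pairs by left edge and 52.9% by right edge, so many pairs had the opposite order. The part of this offset in the upstream lean was not tested.

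Extension grew with the length of the DRIPc peak on both sides, and so did the chance of touching a DRIP peak at all. Both follow in part from geometry, since a long peak has more to touch with and more to extend with, so the split between the sides is the measure to read within a length class. The share touching a DRIP peak rose from 27.5% (26.9 to 28.1%) in the shortest quartile of DRIPc peaks, up to 809 bp, through 40.8% and 51.9% to 62.1% (61.5 to 62.8%) in the longest quartile, above 3402 bp. Among the longest 1%, above 14038 bp, it was 68.0% (64.8 to 71.1%), whose interval overlaps the 67.2% (66.2 to 68.2%) of the longest 10%, above 5762 bp.

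Of the touching peaks in the shortest quartile, 69.98% lay inside the DRIP span and 2.75% passed it on both sides. In the second and the third quartile, 50.8% and 39.5% lay inside. In the longest quartile, 31.8% lay inside and 28.8% passed it on both sides, and in the longest 1% these shares were 23.6% and 38.8%. Peaks that extended upstream only made up 13.3% to 17.6% of each class and those that extended downstream only 13.99% to 26.5%, with the highest downstream-only share in the third quartile. The longer extension was downstream in 50.1% (47.7 to 52.4%) of extending peaks in the shortest quartile, 56.3% (54.8 to 57.8%) in the second, 58.7% (57.5 to 59.9%) in the third and 56.2% (55.2 to 57.2%) in the longest. In the longest 1% it was 53.8% (49.1 to 58.4%), an interval that includes 50%.

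**Figure D3:**
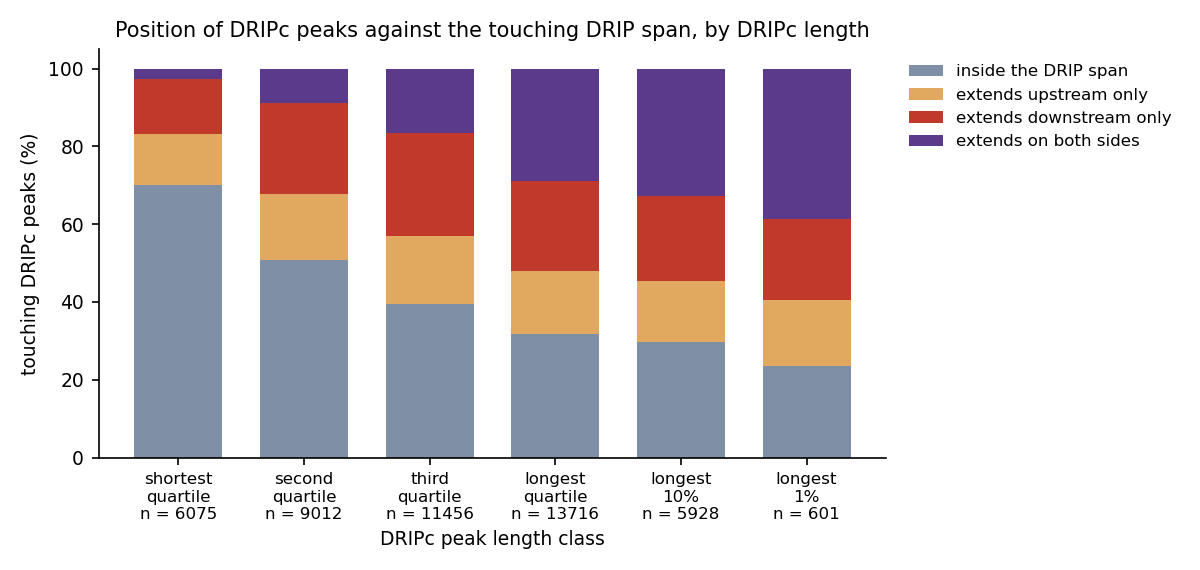
Share of touching DRIPc peaks (%) that lie inside the DRIP span or extend beyond it upstream only, downstream only or on both sides, by length class of the DRIPc peak; the 10% and 1% classes are parts of the longest quartile. The inside share falls from 69.98% to 23.6% from left to right, and extension on both sides rises from 2.75% to 38.8%.

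The size of the extension followed the same order. The median downstream extension was 219 bp in the shortest quartile, 513 bp in the second, 936 bp in the third, 1707 bp in the longest and 2945 bp in the longest 1%. The median upstream extensions were 166, 455, 782, 1443 and 2601 bp in the same classes, below the downstream value in each. Over all touching peaks, 18.6% extended more than 1 kb downstream and 13.9% more than 1 kb upstream. Read against that background, the longest quartile held 34.1% (33.3 to 34.9%) and 27.1% (26.4 to 27.9%), and the second quartile 5.29% (4.84 to 5.78%) and 3.42% (3.05 to 3.81%). The count of peaks that extended downstream was 1.29 times the count that extended upstream at a limit of 500 bp, 1.36 times at 2 kb and 1.41 times at 5 kb, where 752 and 532 peaks remained. Beyond 10 kb there were 108 downstream and 78 upstream extensions.

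Since extension depends on the length of both peaks, they were also divided into 16 classes by quartiles of DRIPc length and of DRIP span, taken over the touching peaks. The longer extension was downstream in more than 50% of extending peaks in 15 of the 16 classes, with intervals wholly above 50% in 11. The lowest share, 49.9% (47.8 to 51.9%), was found where both lengths were in their shortest quartile. The highest, 60.8% (56.8 to 64.6%), was found for DRIPc peaks of the second length quartile over DRIP spans of the third. Peaks lying wholly inside the span showed no side: their midpoint lay at a median of 50.4% of the span, with quartiles at 36.0% and 64.3%, and they left a median of 1446 bp free upstream and 1438 bp downstream.

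Taken by base pairs, 58.1% of the length of touching DRIPc peaks lay inside DRIP peaks, 13.6% upstream of the span, 17.9% downstream and 10.4% in gaps between DRIP peaks. In the shortest quartile 83.6% of the length lay inside DRIP peaks. In the longest 1% this fell to 47.4%, while the gaps between DRIP peaks took 23.9% of the length, more than the downstream extension did at 15.6%. In the longest RNA-strand peaks, gaps in the DNA map thus held more of the length than the stretch past either end did, with 13.1% upstream.

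In 14662 cases a DRIPc peak touched exactly 1 DRIP peak and that DRIP peak touched no other DRIPc peak. These exclusive pairs compare single peaks, with a median DRIP length of 1388 bp against a DRIPc median of 2070 bp. The median over the whole digest A list was 1206 bp, and the median span over all touching DRIPc peaks, which can join several DRIP peaks, was 3556 bp. The DRIPc peak was the longer of the pair in 60.9%, and the median ratio of its length to that of the DRIP peak was 1.42, with quartiles at 0.624 and 3.69. Across these pairs the lengths had a Spearman correlation of -0.04, given as a description over 14662 pairs whose choice depends on both lengths. More DRIPc peaks left the DRIP peak here than left the span over all touching peaks. In these pairs, 61.7% (60.9 to 62.5%) of DRIPc peaks ended beyond the downstream edge and 48.5% (47.7 to 49.3%) started inside. The part of DRIP length in this was not tested. The longer extension was downstream in 57.7% (56.8 to 58.6%), close to the value over all touching peaks.

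The longest extensions in these pairs were RNA-strand peaks of 20 kb and more that met a short DRIP peak near an end. The longest downstream extension, 26.7 kb, belonged to a plus strand peak on chromosome 15 from 47477468 to 47504188. Its DRIP peak, from 47476079 to 47477468, shared 1 bp with it, and the digest B, RNase A, RNase H and K562 lists covered 1.35%, 0%, 0% and 0% of the DRIPc peak. The next, 22.8 kb, was on chromosome 8, plus strand, from 79428798 to 79452762, where the DRIP peak at 79428083 to 79429971 lay over the DRIPc start. A plus strand peak on chromosome 10 from 28890401 to 28914633 extended 22.1 kb past a DRIP peak of 2.02 kb and began 97 bp before it. On chromosome 5, a plus strand peak from 96360869 to 96381459 extended 20.5 kb and was covered by none of the other lists. In these 4 the DRIP peak lay at or within 97 bp of the 5′ end of the RNA-strand peak. The fifth, on chromosome 1, plus strand, from 149669990 to 149697420, extended 21.7 kb downstream and 4.30 kb upstream.

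Upstream extensions of that size existed too. A minus strand peak on chromosome 12 from 90055727 to 90094915 began 34.7 kb before its DRIP peak, which was 402 bp long, and ended 4.07 kb past it. Others lay on chromosome 21, minus strand, from 23492204 to 23519273 (22.7 kb upstream), on chromosome 3, plus strand, from 37924111 to 37950813 (22.3 kb), on chromosome 4, minus strand, from 42402054 to 42424772 (22.3 kb) and on chromosome 7, minus strand, from 120981670 to 121003820 (20.8 kb). The chromosome 3 peak was the best covered of these in digest B, at 28.5% of its length, and in the RNase A list, at 23.5%. Of these 5, 4 ended at most 4.07 kb past the DRIP peak, and that on chromosome 4 ended 704 bp inside it.

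Pairs with closely matching edges were short by comparison. Of the exclusive pairs, 119 had both edges within 100 bp, and the longest was a minus strand peak on chromosome 3 from 124686436 to 124690135 (3.70 kb), for a DRIP peak from 124686380 to 124690084. It lay wholly in a digest B peak and 98.5% of it in the RNase A list. The next were on chromosome 17, minus strand, from 54983925 to 54987554, and on chromosome 7, plus strand, from 148873597 to 148876973. A plus strand pair on chromosome 17 from 28787585 to 28790959 matched as well, yet no other DRIP list covered any of it. The opposite case, a short RNA-strand peak in a long DNA-map peak, was led by chromosome 9: a minus strand DRIPc peak of 1.13 kb, from 139434257 to 139435388, lay in a DRIP peak of 29.0 kb, from 139409508 to 139438480. The digest B, RNase A, RNase H and K562 lists all covered that DRIPc peak in full. On chromosome 20, a plus strand DRIPc peak of 1.09 kb, from 36025313 to 36026405, lay 411 bp from the downstream edge of a DRIP peak of 20.7 kb.

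One RNA-strand peak often ran across several DNA-map peaks. Of the touching DRIPc peaks, 72.3% met 1 DRIP peak, 20.4% met 2, 5.06% met 3 and 2.28% met 4 or more, up to 12. The 11152 DRIPc peaks that met more than 1 bridged 14610 gaps between neighbouring DRIP peaks, with a median gap of 477 bp and quartiles at 47 and 1182 bp. A DRIPc peak bridged 63.2% (62.2 to 64.3%) of gaps up to 200 bp, 35.5% (34.5 to 36.6%) of those over 500 and up to 1000 bp and 15.7% (14.9 to 16.4%) of those over 2000 and up to 5000 bp. From the DNA side, 75.6% of touched DRIP peaks met 1 DRIPc peak, 17.7% met 2 and 4.26% met 3.

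Bridged gaps were filled in the digest B map more often than other gaps of like size. Digest B cuts the DNA at other sites and is a separate library. Of gaps over 500 and up to 1000 bp, 81.1% (79.6 to 82.5%) of bridged and 55.5% (54.1 to 56.8%) of unbridged ones lay wholly inside digest B peaks. For gaps over 1000 and up to 2000 bp the shares were 69.5% (67.6 to 71.3%) and 42.8% (41.5 to 44.1%), and over 2000 and up to 5000 bp 42.2% (39.7 to 44.7%) and 19.3% (18.4 to 20.1%). The RNase A list, made with digest A, gave shares closer to each other. They were 77.9% (76.8 to 79.0%) of bridged and 71.1% (69.5 to 72.7%) of unbridged gaps up to 200 bp, and 46.7% (44.6 to 48.9%) and 40.9% (39.1 to 42.7%) of those over 200 and up to 500 bp. In the next size classes the intervals overlapped: 30.3% (28.6 to 32.0%) and 31.3% (30.1 to 32.6%) over 500 and up to 1000 bp, and 16.9% (15.5 to 18.5%) and 17.4% (16.4 to 18.4%) over 1000 and up to 2000 bp. In K562, bridged gaps were filled less often than unbridged ones, at 13.2% (11.9 to 14.5%) against 25.5% (24.3 to 26.7%) over 500 and up to 1000 bp. Whether the restriction sites of digest A lie in these gaps was not tested, since no genome sequence was used.

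**Figure D4:**
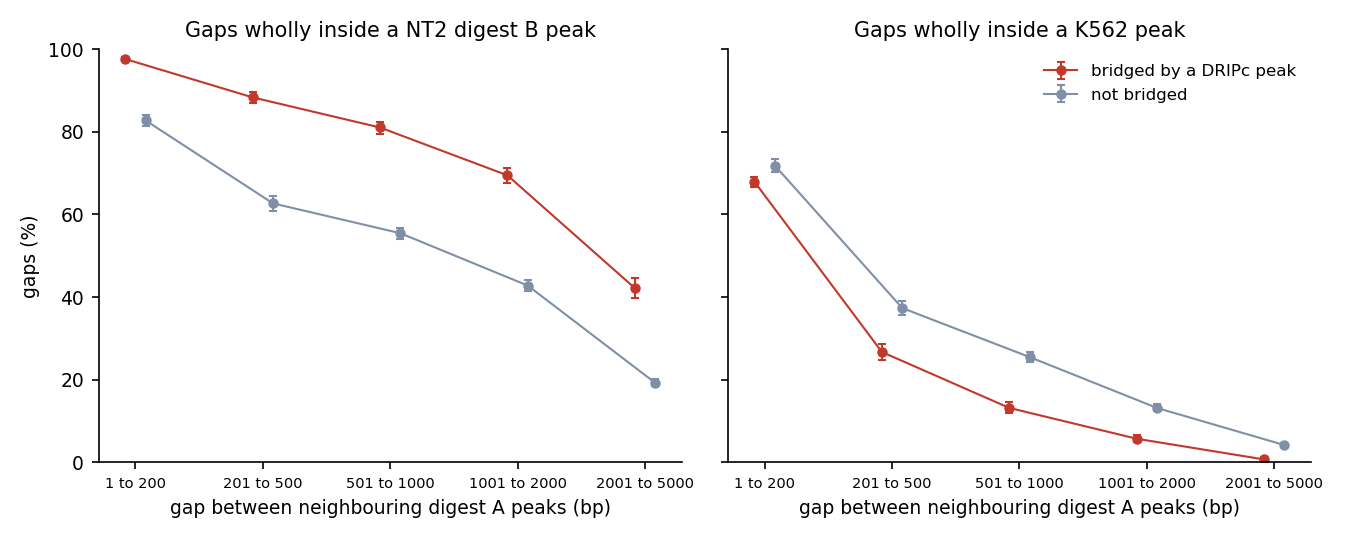
Percentage of gaps between neighbouring digest A peaks that lie wholly inside NT2 digest B peaks (left) or K562 peaks (right), by gap size, for gaps bridged by an NT2 DRIPc peak and for the others, with exact 95% intervals. Bridged gaps lie above the others for digest B in every size class (81.1% against 55.5% over 500 and up to 1000 bp) and below them for K562 (13.2% against 25.5%).

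The DRIPc peaks that met the most DRIP peaks were 35.4 to 66.4 kb long. On chromosome 1, a minus strand peak from 115255887 to 115300588 met 12 DRIP peaks, lay inside their span, and was 94.998% covered by digest B. Another on chromosome 1, plus strand, from 120254391 to 120289767, also met 12 and ended 2.48 kb past the last of them. A minus strand peak on chromosome 15 from 70333162 to 70371422 met 11 and was nearly all covered by digest B (99.99%). One on chromosome 2, minus strand, from 39958203 to 39994346, met 11. The longest DRIPc peak of the list, 66.4 kb on chromosome 6, minus strand, from 112120935 to 112187371, met 10, with 45.8% of its length in digest B and 0.488% in the RNase A list.

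The extensions were covered more by digest B, the other enzyme mix, than by the other lists. Digest B peaks covered 46.5% of the upstream and 45.7% of the downstream extension length, and touched 74.8% and 73.8% of the extensions. The RNase A list touched 31.8% and 31.5% of them, K562 21.5% and 21.3%, and the RNase H list 2.06% and 1.02%. By length, the RNase A list covered 11.1% and 10.7%, K562 6.08% and 6.14%, and the RNase H list 0.278% and 0.205%. For the part of the same downstream-extending peaks that lay inside the digest A span, these lists covered 81.3%, 51.7%, 35.8% and 1.23%. DRIPc peaks that touched no digest A peak had 14.01% of their length in digest B, 4.19% in the RNase A list and 1.79% in K562. Over the length of all DRIPc peaks, digest B covered 49.1%, the RNase A list 29.7%, K562 22.6% and the RNase H list 1.47%. Digest B touched 54.5% of all DRIPc peaks. It was also the widest of these lists, at 195 Mb, against 150 Mb for RNase A, 118 Mb for K562 and 15.4 Mb for RNase H. The part of list width in the cover of the extensions was not tested. The share of length covered differed by less than 1 percentage point between upstream and downstream extensions in each list, while 49.8% of upstream and 45.1% of downstream extensions lay wholly in digest B peaks.

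The downstream direction appeared with the digest B, RNase A and K562 lists as well. Set against digest B, the longer extension was downstream in 57.5% (56.8 to 58.2%), against the RNase A list in 54.3% (53.6 to 55.0%) and against K562 in 56.3% (55.5 to 57.0%). These comparisons share the DRIPc list, and their values are given side by side. Against the RNase H list, in which hybrids are destroyed before recovery, 2293 DRIPc peaks touched a peak and the share was 47.9% (45.4 to 50.5%), and 53.4% (49.9 to 56.9%) in exclusive pairs. Digest A peaks that were also in the RNase H list gave 42.0% (38.5 to 45.4%) of 815 extending DRIPc peaks, and 53.5% (49.0 to 57.9%) of 503 once peaks touching the other strand were left out. Digest A peaks not in the RNase H list gave 57.0% (56.4 to 57.7%).

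Cover by DRIP peaks was also read around all DRIPc peaks, touching or not. Around the starts of all 88310 DRIPc peaks, a digest A peak was present at the start itself in 30.4%, in 30.9% at 500 bp into the peak, and in 25.8% at 1 kb upstream. At the ends, a digest A peak was present in 27.5%, and in 22.8% at 1 kb downstream. The values at the start and at the end are not separate counts. They restate the 26887 touching peaks that started inside and the 24288 that ended inside, as shares of all DRIPc peaks. Cover was thus already higher at the start than at the end. Outside the DRIPc peak it was 2.99 percentage points higher upstream than downstream at 1 kb, 2.45 at 2 kb, 1.11 at 5 kb and 0.147 at 10 kb. The outside values are not independent of those at the start and end, since a DRIP peak over either can reach beyond it. For digest B the difference was 3.88 points at 1 kb, for the RNase A list 2.02, for K562 2.02 and for the RNase H list 0.0963.

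**Figure D5:**
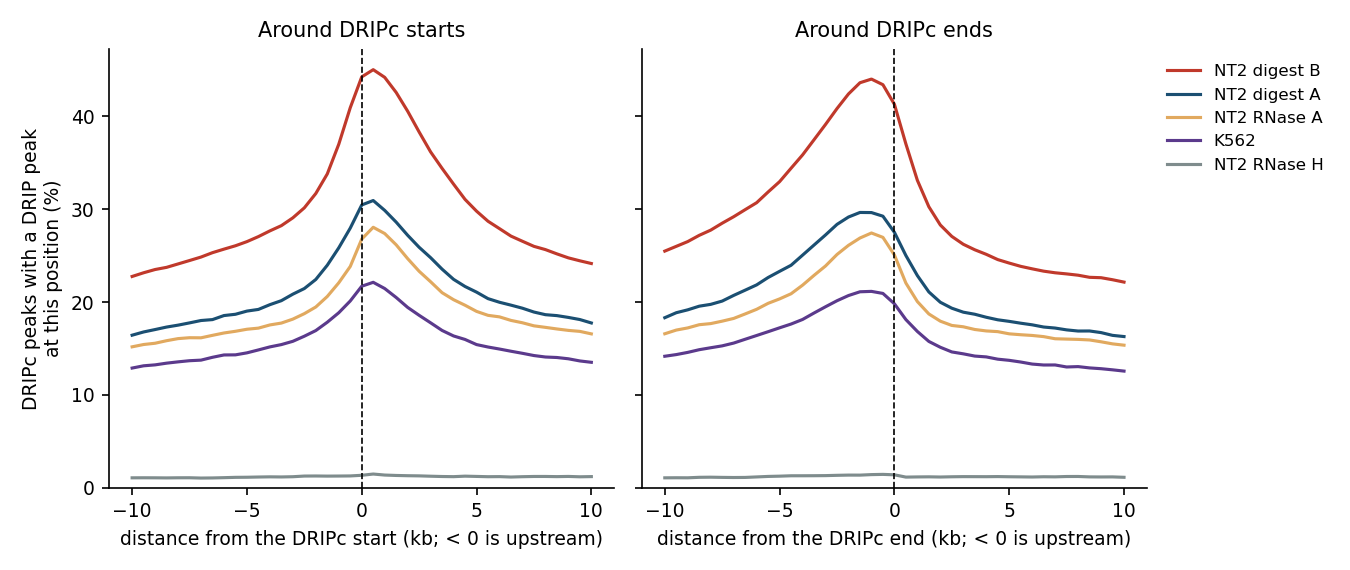
Percentage of all 88310 NT2 DRIPc peaks that have a DRIP peak at a given distance from the DRIPc start (left) or end (right), from 10 kb upstream to 10 kb downstream along the DRIPc strand, for 5 DRIP lists. Cover by digest A, digest B, RNase A and K562 peaks is highest just inside the start. Up to 5 kb, it is lower past the end than at the same distance before the start. The RNase H line stays between 1.05% and 1.48%.

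The 48051 DRIPc peaks that touched no digest A peak were nearer to a DRIP peak on their upstream side. Among 48023 with a DRIP peak on both sides, the nearer was upstream in 56.7% (56.3 to 57.2%), and on each of the 24 chromosomes, Y included, this share was above 50%. The median distance to the next DRIP peak was 26802 bp upstream and 40126 bp downstream. Of these peaks, 13.1% lay within 1 kb of a DRIP peak and 32.2% within 5 kb. Within 1 kb the nearer was upstream in 56.0% (54.7 to 57.2%). Outside chromosome Y, untouched peaks and touching peaks that extended thus leaned the same way as groups. The DNA map lay more often towards the 5′ side of the RNA-strand peak. On chromosome Y the extending peaks leaned the other way, and peaks wholly inside the span showed no side.

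The position of a DRIPc peak against the DNA map differed between chromosomes more than its direction did. The share lying inside the DRIP span ran from 19.8% on chromosome 13 and 21.7% on chromosome 18 to 59.7% on chromosome 17 and 74.9% on chromosome 19. The median DRIP span met by a DRIPc peak was 1889 bp on chromosome 13 and 6883 bp on chromosome 19, while the median DRIPc length was 2669 and 1886 bp. The order of the inside shares thus went with longer DRIP spans and shorter DRIPc peaks at these extremes.

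In mouse 3T3 embryonic fibroblasts, whose DRIPc and DRIP maps also come from digest A and whose DRIPc file carries RNase A in its name, 23244 of 39905 DRIPc peaks touched a DRIP peak. There 71.3% lay inside the DRIP span, with a median span of 6471 bp and a median DRIPc length of 1340 bp. In NT2 these medians were 3556 and 2373 bp. The longer extension was downstream in 51.9% (50.7 to 53.1%) of 6671 extending 3T3 peaks, below the NT2 value of 56.5% (55.8 to 57.1%). These intervals cover counting error only, and each line has a single DRIPc list. In exclusive pairs it was 52.7% (51.0 to 54.3%) in 3T3 and 57.7% (56.8 to 58.6%) in NT2. The cell line, the species, the libraries, the RNase A in the 3T3 DRIPc file name and the span lengths differ together and cannot be told apart.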

How the data were processed

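Peak lists of DRIPc-seq and DRIP-seq were used as deposited by the authors; they give a chromosome and 2 coordinates and no measure of peak height. The strand is a column in the NT2 DRIPc list and comes from track lines that split the 3T3 DRIPc list into plus and minus, per the file headers. Aligners listed in the submitters' processing notes are TopHat2 2.0.5, Bismark 0.7.7 and BWA 0.6.1, with the builds hg19, GRCh37, mm9 and GRCm38, and no role is stated. How peaks were called, at which threshold, and how the DRIPc samples were combined was not given in the sources used here. Positions are printed counted from 1.

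Touching peaks shared at least 1 bp, strand ignored; bedtools 2.31.1 gave the same 40259 peaks. Starts and ends were oriented by the DRIPc strand and measured from the span of the touching DRIP peaks. Intervals came from scipy 1.17.1, and other work used pandas 2.3.3, numpy 2.4.6 and Python 3.11.15, with matplotlib 3.10.9 for figures. The functions were tested on simulated lists with planted extensions, which they recovered. Regions are named by rule: the 5 longest downstream and upstream extensions, matches within 100 bp and DRIP peaks holding a DRIPc peak, all in exclusive pairs, and the 5 DRIPc peaks meeting most DRIP peaks. Members and rules were chosen with earlier results of these data known. RNA-seq, MethylC-seq and genes were not analysed here.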

Additional observations from a re-analysis of the deposited data

How the results depend on the processing

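The longer extension was downstream in more than 50% of extending peaks under all 10 alternatives tried, between 54.3% and 59.1%. Most of the other shares moved. In the order touching, starting inside, ending beyond and longer downstream, they were 29.8%, 81.4%, 22.0% and 55.3% when DRIP had to cover 50% or more of a DRIPc peak, and 54.5%, 81.1%, 24.3% and 57.5% against digest B. Against the RNase A list, 39.8% touched, 37.1% ended beyond and 54.3% were longer downstream. With peaks within 1 kb merged, the shares were 46.3%, 64.8%, 44.3% and 59.1%. With the longest 50% of each list, 44.3% touched, 41.8% ended beyond and 57.4% were longer downstream. Without DRIPc peaks touching the other strand, they were 40.7%, 63.4%, 44.6% and 57.3%. In exclusive pairs, 48.5% started inside, 61.7% ended beyond and 57.7% were longer downstream, and with only the DRIP peak of longest overlap these were 55.4%, 50.2% and 54.5%. An added alternative chosen after seeing the data left out digest A peaks found after RNase H: 42.8% touched, 64.9% started inside and 42.2% ended beyond. Leaving out chromosome Y, also added, gave 56.6% longer downstream. The causes of these moves were not tested.

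No paired analysis was possible because each list is a single set of peaks and the DRIPc samples are not separate. For the same reason no replicate could be left out. The starting and ending shares thus depend on the settings, from 48.5% to 81.4% for starts. Peak heights and depth were not analysed here.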

Other observations

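DRIPc peaks of one strand often followed each other closely. When peaks of the same strand with gaps of at most 1 kb were joined into runs, 15856 runs held 2 or more peaks, and the longest held 15. The first peak of a run, counted from its 5′ end, touched a digest A peak in 54.7%, and the last in 49.5%. In the runs where only one of these peaks touched, it was the first in 2384 and the last in 1554, or 60.5% (59.0 to 62.1%) for the first. In runs of 3 peaks the shares from first to last were 55.5%, 57.3% and 50.2%, with median lengths of 2075, 2359 and 2003 bp. The last peak thus touched least often and also had the lowest median length. The part of length in this was not tested. Peaks that stood alone touched in 39.2% and had a median length of 1479 bp.

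Around the 36743 digest A peaks that met DRIPc signal of a single strand, DRIPc cover of that strand was 50.8% at 1 kb before the upstream edge and 56.4% at 1 kb past the downstream edge. At 10 kb it was 23.9% and 26.4%. This cover includes the extensions described above, seen from the DRIP side, so it is not a separate result. Cover by the other strand, which the choice of these peaks keeps out of the DRIP peak itself, was 2.08% at 1 kb upstream and 1.46% at 1 kb downstream, 4.59% and 3.83% at 5 kb, and 4.78% and 5.05% at 10 kb. The other strand was therefore slightly higher on the upstream side up to 5 kb and slightly lower there at 10 kb.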
